A study of Solanum lycopersicum with 6 samples.

Results

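CHH losses in exons are the regions that the deposited CHH table labels as lying in an exon and whose mean CHH methylation was lower in nrpd1 embryos than in wild-type (WT) embryos of tomato. There were 2512 of them among 76805 listed CHH regions, and they made up 3.41% (Wilson 95% interval 3.28 to 3.55) of the 73614 listed CHH losses. CHH stands for a cytosine followed by 2 bases that are not G. WT embryos and embryos with a knockout of SlNRPD1 (nrpd1) were both from the cultivar Micro-Tom, a dwarf tomato, and both were taken 21 days after flowering. Each genotype had 3 bisulfite libraries. The labels say nothing of how the knockout was made, of the number of lines, or of whether embryos or plants were pooled, and methylation tables cannot check the loss of the gene product or the tissue.

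The NRPD1 protein forms the largest subunit of polymerase IV, which in plants makes precursors of the small RNAs that guide DNA methyltransferases to matching DNA. Because CHH sites are not symmetric between the strands, their methylation must be laid down again after each replication, either by this RNA-directed route or by a chromomethylase that binds methylated histones. In flowering plants the bodies of many active genes carry CG methylation alone, and non-CG methylation inside genes is often found where transposable elements lie in or beside them.

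The regions were chosen by the sign of the difference between the CHH means of nrpd1 and WT, together with the exon label, so all CHH values below are a description of selected regions. The tables hold 1 mean level per genotype and region, with no value per library and no read depth. The error between libraries is therefore unknown, and no test between genotypes was made. For some comparisons of sets of regions, the value was computed on each of the 12 chromosomes and its SD over chromosomes is given. The other comparisons pool the chromosomes and are given without such a spread. All chromosomes come from the same 6 libraries, so they do not stand for replicates. Intervals on shares are Wilson 95% intervals. They cover only counting error and take each region as independent of the others.

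Nearly all CHH differences listed in exons were losses. The table lists 54 exon gains, so 97.9% (97.3 to 98.4) of 2566 exon regions were losses, close to the 97.7% in introns and above the 95.8% of all listed CHH regions. The sign was part of the rule, and nothing further is read from this share. Together the exon losses covered 1.84 Mb and 432820 CHH cytosines, out of 61.2 Mb covered by all CHH losses.

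CHH methylation in these regions was moderate in WT embryos and low in nrpd1 embryos. The WT level had a median of 21.4%, with quartiles of 17.2% and 27.5% and a range from 11.6% to 52.8%. The nrpd1 level had a median of 5.80%, with quartiles of 4.40% and 7.99% and a range from 1.39% to 28.8%. Per region the level fell by a median of 15.1 points (SD of the chromosome medians 0.988), and 27.2% of the WT level was left in nrpd1 (SD 0.568). Every region still had some listed CHH level in nrpd1, the share left running from 9.41% to 65.3%. The conversion rate is not known, so the lowest levels cannot be told apart from incomplete conversion. In nrpd1, 35.8% of the exon losses were below a level of 5%, compared with 30.7% of intron losses, 27.8% of 3′ UTR losses, 31.0% of 5′ UTR losses and 16.9% of all CHH losses. A level below 10% in nrpd1 was found in 85.3% of the exon losses and 65.6% of all CHH losses. For this, intron losses had 79.8%, 3′ UTR losses 83.3% and 5′ UTR losses 90.5%. The sets compared were not matched on the WT level, which was lower in exon losses than over all CHH losses.

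**Figure D1:**
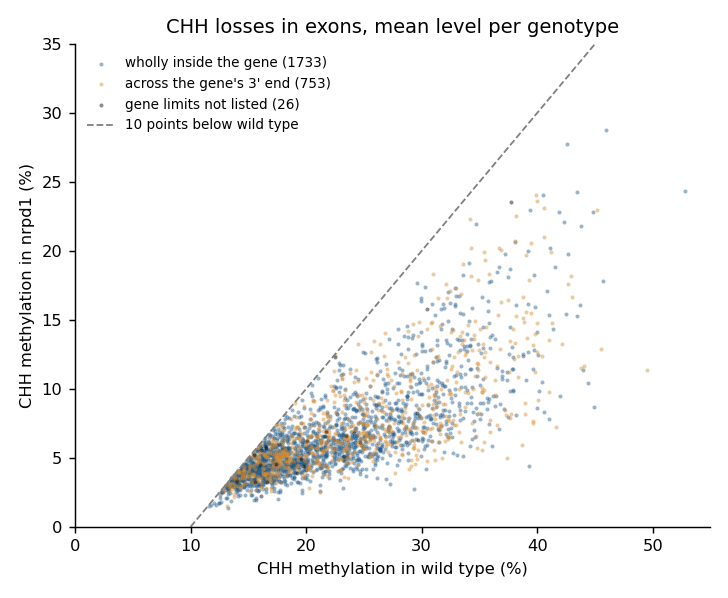
CHH methylation of each of the 2512 exon losses in WT (x axis, percent) and in nrpd1 (y axis, percent), with 1 point per region coloured by its place relative to the gene, and a dashed line at 10 points below WT. The points lie on or below that line, most nrpd1 levels are under 10%, and regions inside genes and across the 3′ end overlap widely.

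The 10 greatest exon losses had WT levels from 38.7% to 49.5% and nrpd1 levels from 4.44% to 12.9%. At chr8:75233-76217 (SL4.0) the CHH level was 49.5% in WT and 11.4% in nrpd1, the greatest exon loss in the table. Only 196 bp of that 985 bp region lay inside the annotated gene, and no listed CHG loss overlapped it. At chr11:52051340-52052081, wholly inside a gene, the CHH level was 44.9% in WT and 8.70% in nrpd1. The CHG level of the region overlapping it was 63.4% in WT and 14.0% in nrpd1, and the CG level was 64.3% and 40.6%, so all 3 contexts were lower in nrpd1 there. At chr5:5877949-5878262 the CHH level was 39.3% in WT and 4.44% in nrpd1, the lowest nrpd1 level among these 10 regions. Of the 10, 6 lay wholly inside a gene, 6 overlapped a CHG loss and 3 overlapped a CG loss.

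A high WT level did not go with a complete loss. The region with the highest WT level, chr6:37803971-37805033, had 52.8% CHH methylation in WT and 24.4% in nrpd1, so that 46.1% of the level was left. Among exon losses with a WT level under 15% the median left was 24.2%, and among the 47 with a WT level of 40% or more it was 36.9%. The table lists no CHH region with a difference under 10 points, and a region with a low WT level can be listed as a loss only if little of it was left. At this limit, chr11:49604953-49605108 was just inside the set, with 13.5% in WT and 3.52% in nrpd1. No region with a smaller difference is listed, so none just outside the set can be shown. The smallest exon gain, chr12:57958273-57958428, stood at the opposite limit, with 13.3% in WT and 23.3% in nrpd1.

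The exon label covers regions of different placement, and this bears on what follows. The files give the limits of the annotated gene for 2486 of the 2512 regions. Of all exon losses, 1733 (69.0%) lay wholly inside that gene and 753 crossed its 3′ end. None crossed the gene start. The promoter label reached up to 250 bp into genes, and exon losses inside their assigned gene began 252 bp or more from its start. The regions crossing the 3′ end were mostly outside the gene: a median of 11.9% of their width, or 90 bp, lay inside it, and 324 of them had under 10% inside. Over all exon losses, 68.3% of the covered length lay inside the annotated genes. Exon borders are not in the files, so how much of each region is exonic sequence is unknown.

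Whether a CHH loss at a 3′ end was labelled exon depended on the strand of the gene. The files code strands as 1 and 2. All 3555 upstream regions (1 to 2 kb) of strand 1 genes lay below the gene and all 3435 of strand 2 genes above it, so strand 2 is the reverse strand. CHH losses that crossed the 3′ end of their assigned gene were about as frequent on both strands, with 618 on strand 1 and 575 on strand 2. On strand 1, 437 of them were labelled 3′ UTR and 144 exon, whereas on strand 2, 34 were labelled 3′ UTR and 470 exon. Within 300 bp beyond the 3′ end, 1026 losses at strand 1 genes were labelled downstream and none distal intergenic, and at strand 2 genes 42 were labelled downstream and 989 distal intergenic. Exon losses wholly inside genes were even between strands, with 863 on strand 1 and 870 on strand 2. The share left, width, overlap with CHG and CG losses and position along the gene are therefore also given for exon losses wholly inside genes. The other comparisons are over all exon losses.

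**Figure D2:**
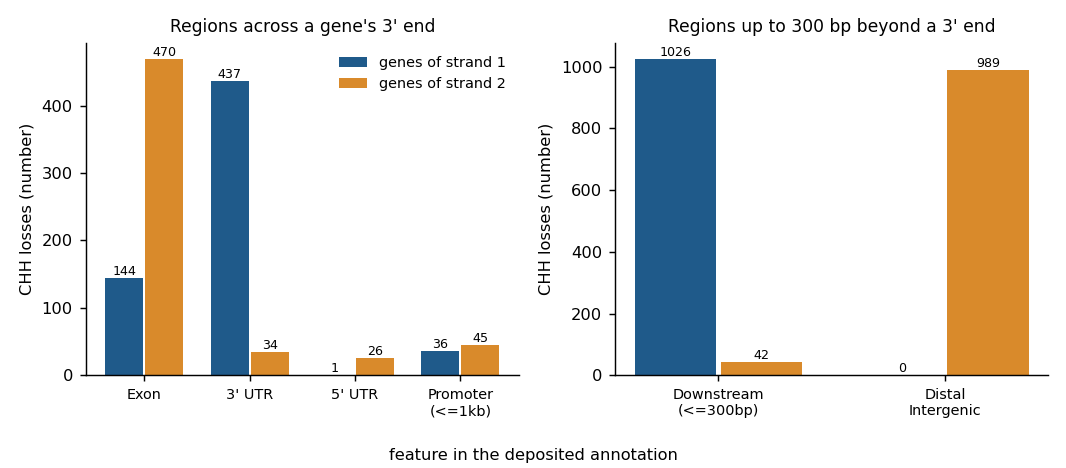
Number of CHH losses by annotated feature and gene strand, for regions across the 3′ end of the assigned gene (left) and regions up to 300 bp beyond it (right), with each bar a count. Across the 3′ end, the 3′ UTR label prevails on strand 1 (437) and the exon label on strand 2 (470). Beyond it, the downstream label prevails on strand 1 (1026) and the distal intergenic label on strand 2 (989).

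Exon numbers in the deposited annotation ran in genome order rather than in transcript order. In genes of 3 or more exons, strand 1 losses numbered exon 1 had their median position 22.7% of the way from the gene's start (n = 81), while strand 2 losses numbered exon 1 had theirs at 98.2% (n = 522). Strand 2 losses in the last-numbered exon lay at a median of 19.0% (n = 67). Of all exon losses, 40.8% were numbered exon 1, and of those wholly inside genes 19.9% were. All 596 strand 2 regions across the 3′ end carried the number 1. The exon number was therefore not read as a position in the transcript, and positions along the gene are used instead.

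Regions across the 3′ end started from a higher CHH level than those wholly inside genes and were wider. The median WT level was 23.3% across the 3′ end and 20.6% inside, higher across the end on 12 of 12 chromosomes (mean difference 2.75 ± 1.49 points, SD). The share left was 28.3% across the end and 26.8% inside, higher across the end on 10 of 12 chromosomes (1.65 ± 1.31 points). Regions across the end were wider, with medians of 702 bp and 571 bp, on 12 of 12 chromosomes. The 5 widest exon losses all crossed a 3′ end. The widest, chr9:3399654-3405185, was 5532 bp long with 37 bp inside the gene, and had CHH levels of 24.9% in WT and 8.31% in nrpd1.

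Compared with intron losses, exon losses started from a similar WT level and had less of it left. The 2638 intron losses had a median WT level of 21.0%, an nrpd1 level of 6.29% and 30.1% left. Averaged over chromosomes, the median share left was -2.79 ± 0.677 points in exons minus introns, and it was lower in exons on 12 of 12 chromosomes. For exon losses wholly inside genes the difference was -3.25 ± 0.837 points, again lower on 12 of 12. Among regions with a difference of at least 20 points, the share left in exons minus introns was -0.600 points. This was within its SD over chromosomes of 1.81 points. The WT level was higher in exons on 7 chromosomes and lower on 5, with a mean difference of 0.683 ± 1.59 points. Against all CHH losses, which had medians of 25.1% in WT and 32.0% left, the share left in exons was lower on 12 of 12 chromosomes (-4.79 ± 0.919 points). The WT level was also lower in exons than over all losses, and regions with a low WT level are listed only if little was left. The part of this in the difference was not tested. The labels were also ordered by the sum of their absolute differences from exon losses in the median WT level and the median share left, in points. By this sum 3′ UTR losses came closest (2.11), with 23.0% in WT and 27.8% left. Intron losses came next (3.29), although they were closer in the WT level alone. The exon set includes 596 strand 2 regions across a 3′ end, a placement mostly labelled 3′ UTR on strand 1. The labels therefore bear on this order. Exon losses wholly inside genes had 20.6% in WT and 26.8% left, and the order was not computed for them alone. Distal intergenic losses had the greatest sum (10.95), with 25.2% in WT and 34.4% left, while in the WT level alone promoter losses within 1 kb were farther, at 26.1%.

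**Figure D3:**
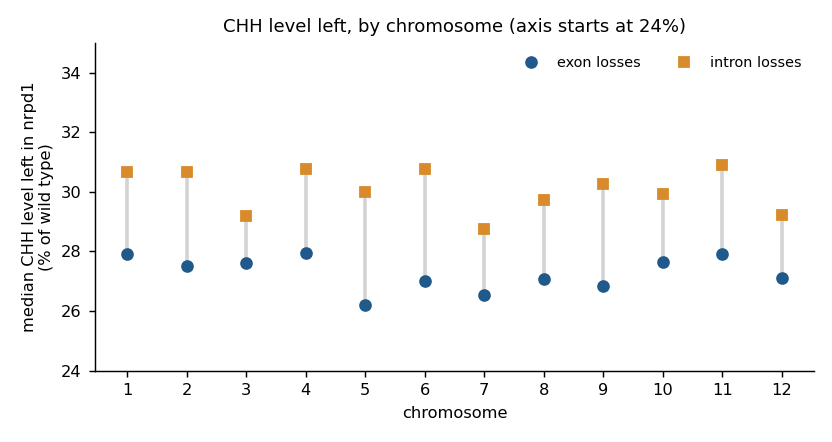
Median share of the WT CHH level left in nrpd1, in percent, for exon losses (circles) and intron losses (squares) on each of the 12 chromosomes, with a grey line joining the pair and an axis that starts at 24%. The exon value is below the intron value on 12 of 12 chromosomes.

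Exon losses were also wider and slightly denser in CHH cytosines than intron losses. They had a median width of 597 bp with 145 cytosines, against 511.5 bp with 124 cytosines in introns. Exon losses were wider on 12 of 12 chromosomes (85.3 ± 23.96 bp). The exon label takes in wide regions across the 3′ end, while no intron loss was found across a gene's end. The labels therefore bear on this difference. For exon losses wholly inside genes the median width was 571 bp. The density was 23.9 CHH cytosines per 100 bp in exon losses and 23.4 in intron losses, higher in exons on 11 of 12 chromosomes. Width went with the WT level: exon losses of at least 300 but under 600 bp had a median of 17.9% in WT, and those of at least 1000 but under 2000 bp had 27.4%. The share left was 27.3% and 28.1% in the same classes.

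Exon losses coincided with listed CHG losses more often than intron losses did. A listed CHG loss overlapped 1267 of the 2512 regions by at least 1 bp, which is 50.4% (48.5 to 52.4), while 35.4% of all CHH losses and 37.8% of intron losses had such an overlap. Losses in the untranslated regions were like exon losses in this, with 48.9% (45.3 to 52.6) of 701 3′ UTR losses and 57.1% (46.5 to 67.2) of 84 5′ UTR losses. The share was higher in exons than in introns on 12 of 12 chromosomes (12.5 ± 5.72 points), and for the regions wholly inside genes it was 51.7% and also higher on 12 of 12 (13.5 ± 6.77 points). Because the number depends on width, it was compared in classes of width. Under 300 bp, 28.4% of exon losses and 13.1% of intron losses overlapped a CHG loss. The shares were 40.6% and 33.1% from 300 to under 600 bp, 57.2% and 48.9% from 600 to under 1000 bp, and 67.2% and 60.9% from 1000 to under 2000 bp. The exon value was above the intron value in each of these classes. With at least 20 cytosines required of every region, in CHG as in CHH, the exon share was 16.1% and the difference from introns 4.59 ± 3.26 points. Among regions with a difference of at least 20 points the exon share exceeded the intron share by 6.04 ± 11.3 points. In the 50% of regions with the larger statistic it did so by 5.90 ± 6.11 points. Both values were within their SD over chromosomes, and both limits were applied to the CHG regions as well. With 50% of the width covered the difference was 5.07 ± 4.58 points.

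**Figure D4:**
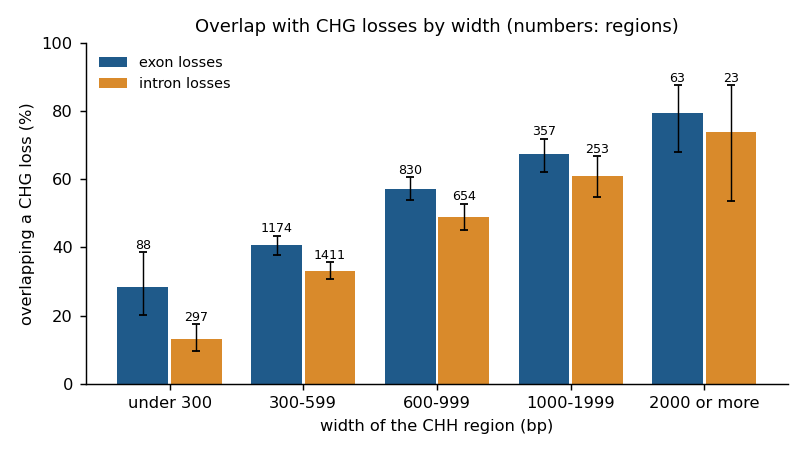
Percent of exon and intron CHH losses that overlap a listed CHG loss, by width of the CHH region in bp, with Wilson 95% intervals that cover counting error only. The exon share lies above the intron share in each class, from 28.4% against 13.1% under 300 bp to 79.4% against 73.9% at 2000 bp or more.

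At these overlaps the relative loss was smaller in CHG than in CHH. The overlapping CHG regions had a median level of 57.2% in WT and 26.3% in nrpd1, and 46.8% of the WT level was left. The CHH level of the same exon losses had 25.8% left. Intron losses had similar CHG values, with 59.4% in WT, 27.6% in nrpd1 and 47.2% left. Over all CHH losses the overlapping CHG regions started higher, at 70.3% in WT, and had 52.8% left. Each CHG region covered only part of the exon loss, with a median of 47.7% of its width. By their own labels, 511 of the best-overlapping CHG regions were exonic, 456 intronic and 209 distal intergenic, so the label often differed between contexts at one place.

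Exon losses with a CHG loss differed from those without one in their CHH values. The median WT CHH level was 22.5% with and 20.4% without a CHG loss, higher with one on 11 of 12 chromosomes. The share of CHH left was 25.8% with and 29.0% without, lower with one on 12 of 12 chromosomes (-3.41 ± 1.13 points). Regions with a CHG loss were also wider, with a median of 676 bp against 536 bp, and the part of width in these differences was not tested.

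CG methylation, the context usual in gene bodies, was rarely listed as lower at these regions. Only 13010 CG regions were listed in all, against 42277 CHG regions, which limits the CG overlap of any set. A CG loss overlapped 186 exon losses, which is 7.40%, against 6.86% of intron losses and 5.32% of all CHH losses. The exon share was above that of all CHH losses on 12 of 12 chromosomes (2.10 ± 1.28 points). The CG share was 7.65% in promoter losses within 1 kb, 8.33% in 5′ UTR losses and 5.42% in 3′ UTR losses. The difference between exons and introns was 0.566 ± 1.67 points, positive on 9 chromosomes and negative on 3. For exon losses wholly inside genes the CG share was 8.31% and the difference 1.56 ± 1.90 points, positive on 10 chromosomes and negative on 2. At the 186 overlaps the CG level had a median of 80.4% in WT and 51.3% in nrpd1, with 64.8% left. Losses in all 3 contexts were found at 144 exon losses, or 5.73%, compared with 3.84% of all CHH losses. That share was 4.81% in intron losses, 4.28% in 3′ UTR losses, 5.57% in promoter losses within 1 kb and 8.33% in 5′ UTR losses. Neither a CHG nor a CG loss was listed at 1203 exon losses, or 47.9%, compared with 63.1% of all CHH losses. For this, intron losses had 60.2%, 3′ UTR losses 49.9% and 5′ UTR losses 42.9%. Listed gains were few, with a CHG gain at 2 exon losses (0.0796%, against 0.162% of all CHH losses) and a CG gain at 17 (0.677%, against 0.554%).

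The 10 exon losses with both overlaps and the greatest CHG losses showed CHG levels falling by 48.4 to 63.3 points. At chr11:3805203-3806039, in Solyc11g010730.3, the CHG level was 83.3% in WT and 19.9% in nrpd1, the CG level 67.7% and 26.0%, and the CHH level 44.4% and 10.4%. At chr4:1975415-1976750 the CHG level was 72.5% in WT and 14.99% in nrpd1, the CG level 94.7% and 72.0%, and the CHH level 41.0% and 7.81%. In both regions CG had the largest share of its WT level left of the 3 contexts.

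Exon losses wholly inside genes were centred most often in the middle 20% of the gene's length (29.3%), and 11.6% were in the first 20% and 10.3% in the last. Labels and widths limit what this shape can show. The promoter label takes regions up to 250 bp into genes, and regions across the 3′ end are left out here. At the median width of 571 bp, a region cannot be centred close to either end of its gene (median length 3471 bp). The shape is therefore not read as a preference for the middle. Intron losses lay nearer the start, with 17.9% in the first 20% and 29.0% in the next. Their genes were longer, with a median of 5070 bp, so the first 250 bp is a smaller part of them. The part of gene length in this difference was not tested. Overlap with CHG and CG losses was more frequent towards the start. Of the exon losses wholly inside genes and centred in the first 40% of the gene (n = 625), 55.8% overlapped a CHG loss, compared with 45.9% of those in the last 40% (n = 601). The CHG share was higher near the start on 10 of 12 chromosomes (9.78 ± 10.8 points). A CG loss overlapped 13.3% (10.8 to 16.2) near the start and 4.66% (3.24 to 6.65) near the end, and was more frequent near the start on 12 of 12 chromosomes (8.82 ± 6.10 points). The median share of CHH left was 26.5% near the start and 27.1% near the end. In 5 equal parts of the gene, each 20% of its length, the CG share in exons was 16.9%, 11.6%, 6.51%, 5.21% and 3.35% from start to end. Intron losses ran in the same order, with 12.4% in the first part and 0.897% in the last.

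**Figure D5:**
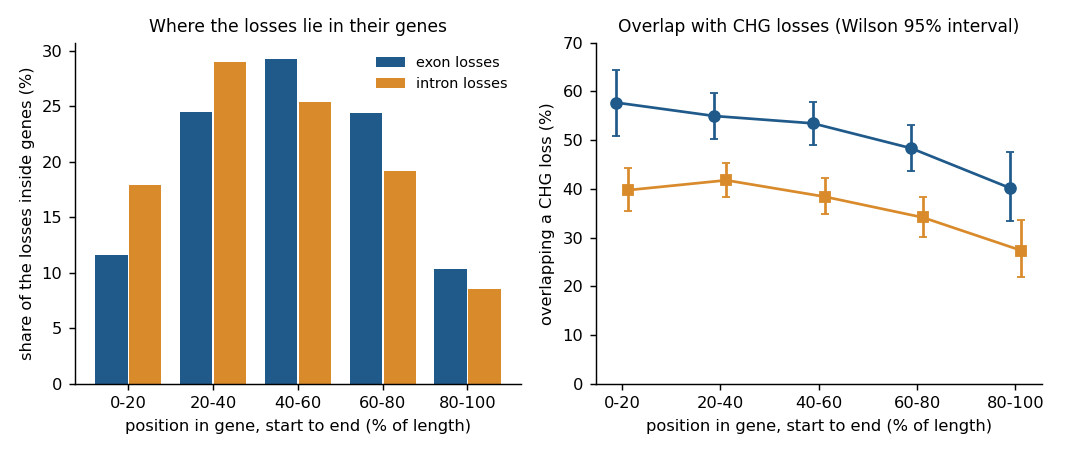
Exon and intron CHH losses wholly inside genes, by position from the gene's start to its end in steps of 20% of its length. The left panel gives the percent of each set in a step, greatest for exons in the middle step (29.3%). In the left panel, the promoter label, region width and the leaving out of regions across the 3′ end limit the shares at both ends. The right panel gives the percent overlapping a CHG loss with Wilson 95% intervals, which in exons goes from 57.7% in the first step to 40.2% in the last.

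The annotation named 2222 genes for the exon losses, and most genes had a single one. There were 1977 genes with 1 region, 208 with 2 and 37 with 3 or more. The greatest number was 6, in Solyc05g047580.4, a gene of 10554 bp and 17 exons on the reverse strand of chromosome 5. In genome order its CHH levels in WT were 25.5%, 21.9%, 17.3%, 14.0%, 35.2% and 21.3%. In the same order the nrpd1 levels were 5.26%, 7.67%, 3.70%, 3.23%, 16.7% and 5.11%. The region with the highest WT level, chr5:58387724-58388344, also had the highest nrpd1 level, and 3 of the 6 regions overlapped a CHG loss. The files do not pair gene identifiers with names, so what these genes encode is not given here.

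Many of the genes also carried CHH losses elsewhere. A promoter CHH loss, within 2 kb of the start, was listed for 73.0% of the 2222 genes, compared with 68.3% of all genes named in the table. In the genes with an intron CHH loss this share was 71.95%. An intron CHH loss was listed in 428 of the 2222 genes (19.3%), against 7.62% of all named genes. A CHG exon loss was listed in 27.5% of them, against 12.8% of the genes with an intron CHH loss and 4.69% of all named genes. For a CG exon loss these shares were 6.66%, 4.26% and 2.08%. These CHG and CG shares include losses at the same place as the CHH exon loss. In all, 547 CHG exon losses and 70 CG exon losses overlapped a CHH exon loss. Overlapping regions can take the same label in each context, so the contrast with the genes of intron losses is not read further. A gene is named only where a region was listed for it, so all named genes are not all genes of the genome. In the other direction, 37.4% of the 1461 CHG exon losses and 11.7% of the 600 CG exon losses overlapped a CHH exon loss. Another CHH loss lay within 1 kb of 58.3% of the exon losses, against 50.7% of intron losses and 62.0% of all CHH losses.

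Exon losses were concentrated towards the chromosome ends on all chromosomes but chromosome 2. The outer 20% at either end of the chromosomes held 82.8% of them, compared with 76.4% of intron losses and 68.8% of all CHH losses. Other labels in or near genes were alike, with 80.95% of 5′ UTR losses, 79.5% of 3′ UTR losses and 79.0% of promoter losses within 1 kb. Promoter losses at 1 to 2 kb had 78.5% and downstream losses 75.75%, while distal intergenic losses had 61.35%. The exon share was above the intron share on 12 of 12 chromosomes and above that of all losses on 11 of 12, with chromosome 2 as the exception (a difference of -0.725 points). On chromosome 2 the outer parts, which are 40% of its length, held 35% of the exon losses, so the concentration towards the ends was absent there, and on chromosome 6 they held 63.6%. Gene density along the chromosomes was not measured independently of these tables, so its part in this was not tested. Exon losses made up from 2.58% of CHH losses on chromosome 2 to 5.33% on chromosome 12. The median share left varied little, from 26.2% on chromosome 5 to 27.9% on chromosome 4. Overlap with CHG losses varied more, from 43.8% on chromosome 7 to 57.8% on chromosome 9. In the middle 60% of the chromosomes the median WT level was 24.1%, against 20.8% in the outer parts. These 2 medians pool the chromosomes. Chromosomes 2 and 6, with the lowest outer shares, had median WT levels of 24.2% and 23.0%, against 21.4% over all exon losses. The part of differences between chromosomes was not tested.

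The 54 exon gains were smaller and narrower than the losses. Their CHH level had a median of 12.7% in WT and 23.3% in nrpd1, and the largest difference was 15.8 points. Their median width was 284 bp, and 37 lay wholly inside a gene. The largest, chr10:21590288-21591261, had 4.43% CHH methylation in WT and 20.2% in nrpd1. Among the exon losses, 20.8% fell by 20 points or more, compared with 14.2% of intron losses and 25.5% of all CHH losses. A fall of 30 points or more was listed for 24 exon losses (0.955%, against 2.17% of all CHH losses).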

How the data were processed

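Embryo DNA was bisulfite-converted and sequenced, per the labels' protocols. Trim Galore 0.6.7 and Bismark 0.24.0 are named in the submitters' processing notes. The conversion rate, the read depth, the thresholds and tool of the region calls and the annotation tool are not given in any of the sources used here. Incomplete conversion would raise apparent CHH levels. The deposited tables give the authors' mean methylation per genotype as a fraction, per the file headers, printed here in percent. They also give a region statistic, a score of the authors used only to select the 50% of regions with larger values. Coordinates are on SL4.0.

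Change is nrpd1 minus WT, and the share left is the nrpd1 level as a percent of the WT level. Overlap between contexts needed 1 bp. Positions inside a gene are those of the region's centre, from the gene limits in the tables, so genes with no listed region have no limits here. Values were computed with Python 3.11.15, pandas 2.3.3, numpy 2.4.6 and SciPy 1.17.1, drawn with matplotlib 3.10.9, and the scripts were tested on simulated data. Groups came from sample titles and genotype labels. Whether separate plants gave the 3 libraries per genotype is not stated in the labels.

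The members and lists were chosen with earlier results of these data known. Regions named are those with the greatest losses, most members in a gene, greatest CHG loss with a CG loss, highest WT level, greatest width, and values nearest the limit. Gene lists by function could not be applied, because 0 of 2222 gene identifiers matched the names available. Alternatives covered the size of the loss, the statistic, cytosine number, overlap, gene assignment and position.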

Additional observations from a re-analysis of the deposited data

How the results depend on the processing

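No result could be recomputed without single libraries, because the tables hold 1 mean per genotype. No paired analysis was possible because there are no values per library, and read depth is unknown. The share left was lower in exons than in introns under every alternative run (-3.47 to -0.600 points). The value of -0.600 points, with a difference of at least 20 points, was within its SD over chromosomes (1.81 points). The difference in CHG overlap ran from 4.59 to 13.9 points, within its SD over chromosomes in some cases. CG overlap in exons minus introns was 0.543 points and reversed to -3.76 with a difference of at least 20 points, -0.545 in the 50% of regions with the larger statistic, -0.457 with 50% of the width covered, and -0.403 when matched on width. The causes were not tested.

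With a difference of at least 20 points there were 522 exon losses (2.78% of CHH losses) in 505 genes, 836.5 bp wide, with a median change of -22.9 points, 25.4% left, 62.5% overlapping a CHG loss, 50.2% numbered exon 1 and 76.6% in the outer parts. In the 50% of regions with the larger statistic there were 1421 (3.73%) in 1325 genes, 776 bp wide, with -18.1 points, 26.2% left (exon minus intron -1.63), 40.3% CHG and 4.86% CG overlap, 43.6% numbered 1 and 81.1% in the outer parts. At least 20 cytosines per region gave 16.1% CHG and 2.20% CG overlap. The limits on difference, statistic and cytosines were applied to all 3 contexts, so fewer CHG and CG losses could overlap. Their overlap shares therefore do not compare stronger with weaker exon losses. With 50% of the width covered the CHG and CG overlaps were 24.4% and 1.55%, with 44.2% of CHG left. Within 200 bp CG overlap was 8.72%. With 1 region per gene the share of CHH losses was 3.02% and 43.8% were numbered 1. Where the annotated gene was the assigned gene these were 3.08% and 38.2%. The outer 10% held 64.0%, and weighting by cytosines gave -16.7 points. Chosen after seeing the data were regions wholly inside genes (2.35% of CHH losses, 571 bp, 19.9% numbered 1, 84.3% in the outer parts), genes of strand 1 (1020 regions, 2.77%, 893 genes, 8.92% CG overlap, 20.1% numbered 1, 84.8% outer) and the match on width.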
